A study of Mus musculus with 2 samples.

Results

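The genes described here are the 42 enzymes and transporters that build, sulfate and trim the chondroitin, dermatan and heparan sulfate chains of proteoglycans. They were picked by name and role, not by their values, and are 42 of the 43346 gene rows measured. Limb tissue came from C57BL/6J mice at embryonic day 14.5, with 2 libraries of polyadenylated RNA, each from pooled male and female littermates. The libraries form the only group, with no treatment, mutation or other age, so levels within the limb and differences between the libraries are what the design allows. They carry separate biosample identifiers and the same donor identifier. Which limbs were taken is not stated, nor whether separate litters were used, so the p-values and intervals cover no more than the spread of these samples, some of which may be technical.

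A proteoglycan is a core protein that carries long sugar chains, and the chains bind water, collagen-associated proteins and growth factors. Every chondroitin or heparan chain starts with a short linker of xylose, galactose and glucuronate on a serine of the core protein. The chain is then lengthened by alternating sugars in the Golgi, and sulfate is added from the donor PAPS at set positions. In the embryonic limb, cartilage is rich in chondroitin sulfate on aggrecan, while heparan sulfate at cell surfaces binds hedgehog, FGF, BMP and Wnt proteins. Mutations of several of these genes in humans cause skeletal disorders, among them multiple exostoses (EXT1 and EXT2) and diastrophic dysplasia (SLC26A2).

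Most chain enzymes were expressed in the limb, and no step of the pathway lacked a well expressed gene. The highest gene of each of the 8 steps lay between 46.9 TPM (Hs6st1, in heparan modification) and 268 TPM (Sulf2, in extracellular desulfation). TPM is the deposited level scaled by transcript length and library, so levels of different genes can be compared on it. Of the 42 genes, 38 reached 1 TPM in both libraries, which is called detected here. Among 21474 protein-coding genes the detected share was 62.8%. The median level was 22.6 TPM, with library medians of 21.6 in replicate 1 and 23.9 in replicate 2. The median was 5.84 TPM over all protein-coding genes and 19.9 TPM over the 13494 that were detected. The 38 detected chain genes had a median of 27.9 TPM. Levels ran from 0.63 TPM for the heparan N-sulfotransferase Ndst4 to 268 TPM for the extracellular sulfatase Sulf2. At 10 TPM or more in both libraries were 28 of the 42 genes, all among the 38 detected. The same held for 8946 of the 21474 protein-coding genes, all among the 13494 detected.

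**Figure D1:**
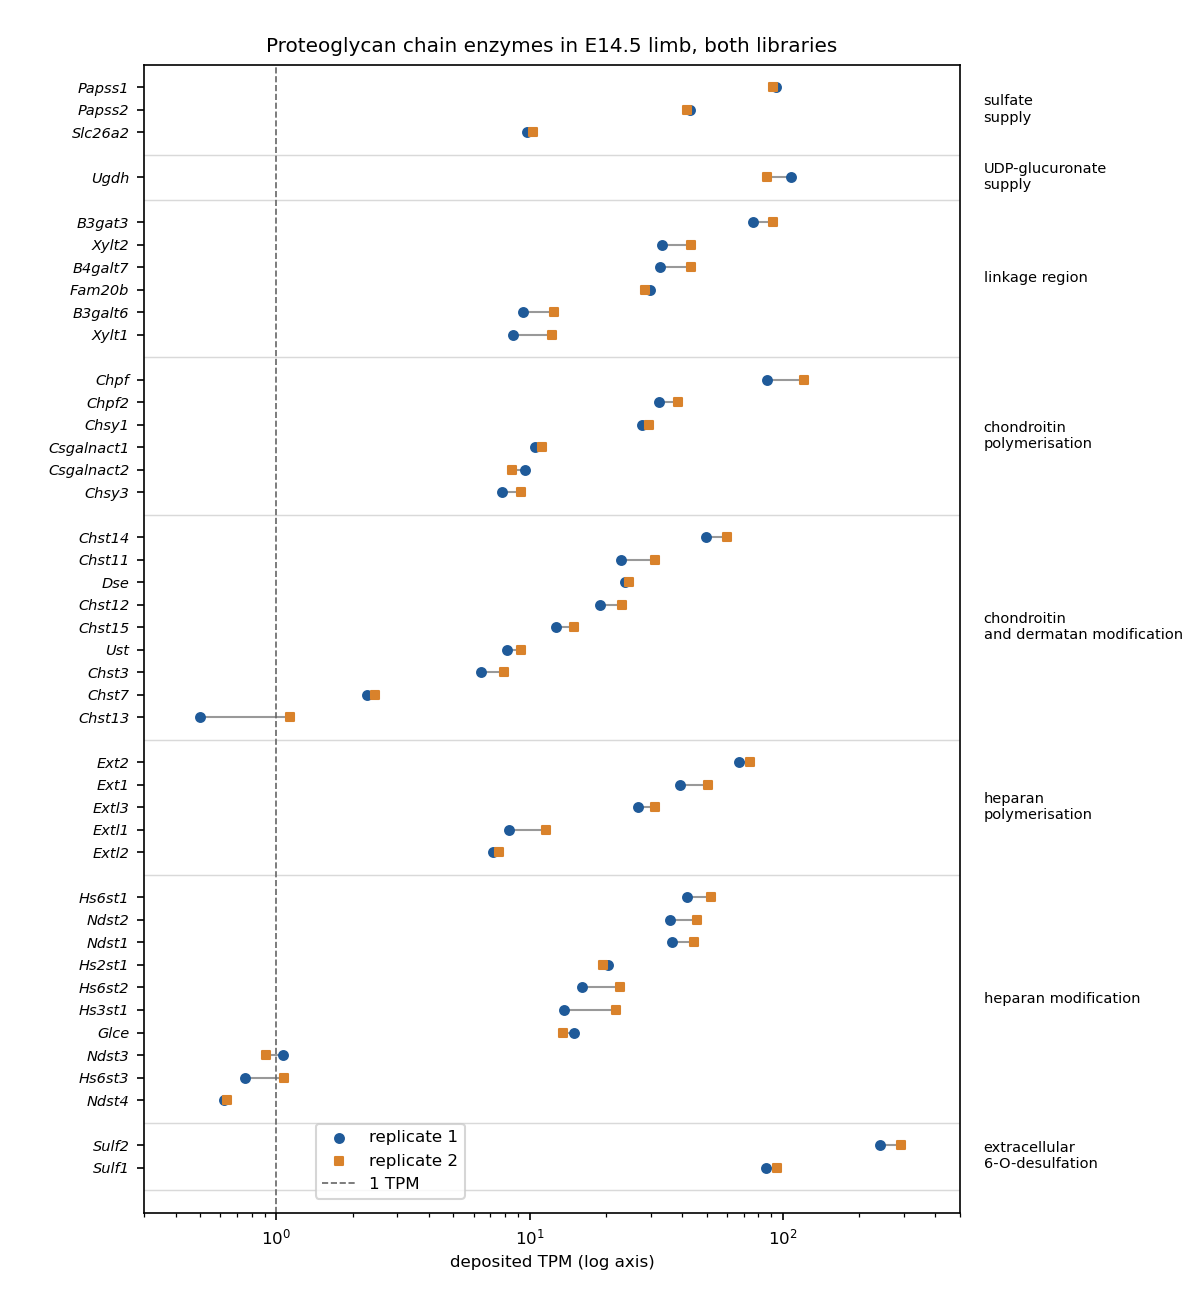
Deposited TPM on a log axis for the 42 genes, grouped by step of chain synthesis, with a circle for replicate 1, a square for replicate 2 and a dashed line at 1 TPM. Sulf2 lies highest at 243 and 293 TPM. Ndst4 lies below the line at 1 TPM in both libraries, and Chst13, Hs6st3 and Ndst3 straddle it.

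Sulfate enters the cell through the anion transporter Slc26a2, which was at 9.74 TPM in replicate 1 and 10.3 TPM in replicate 2. The bifunctional PAPS synthases Papss1 and Papss2 turn it into the sulfate donor. Papss1 (chr3:131564768-131643671) was at 93.5 and 91.3 TPM, and Papss2 (chr19:32595790-32667187) at 43.0 and 41.9 TPM. The libraries differed by little for either gene, and Papss1 lay above Papss2 in both. The difference of Papss1 over Papss2 was 1.11 on the log2(TPM + 1) scale, with a 95% interval from 0.64 to 1.57 (limma moderated variances). Papss1 thus made up 63.9% and 63.6% of the TPM summed over this supply step. Slc26a2 stood above its relative Slc26a1, a sulfate transporter outside the set, by 2.12 (95% interval 1.59 to 2.65).

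Ugdh oxidises UDP-glucose to UDP-glucuronate, a building block of chondroitin, heparan and hyaluronan. It was the third most abundant gene of the set, at 108 TPM in replicate 1 and 86.7 TPM in replicate 2 (97.3 ± 15.0, SD, n = 2). Unlike most of the set it was lower in replicate 2, with a log2 ratio of TMM-scaled counts of -0.20 (adjusted p = 3.7e-28, exact binomial test between the libraries). Part of its level lay on transcript models that are not in the later GENCODE M21 annotation, 18.6% of its TPM in replicate 1 and 33.0% in replicate 2. On its protein-coding M21 transcripts alone Ugdh was at 77.9 and 50.1 TPM.

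All 6 genes of the linker were detected. The xylosyltransferases Xylt1 and Xylt2 start the chain by adding xylose to the core protein. Xylt1 was at 8.56 and 12.3 TPM and Xylt2 at 33.4 and 43.2 TPM, so Xylt2 was the more abundant in both libraries. Xylt1 over Xylt2 gave a log2 difference of -1.79 (95% interval -2.33 to -1.26). The galactosyltransferases add the next sugars in turn. B4galt7, which adds the first galactose, was at 32.7 and 43.4 TPM, and B3galt6, which adds the second, at 9.38 and 12.4 TPM. B4galt7 lay above B3galt6 by 1.71 (1.19 to 2.23). The highest linker gene was B3gat3, the glucuronosyltransferase that completes the linker, at 76.1 TPM in replicate 1 and 91.5 TPM in replicate 2. The kinase Fam20b, which phosphorylates the xylose, was at 29.8 and 28.6 TPM. The levels within this step thus spanned 8.04-fold, with Xylt1 and B3galt6 as its low members.

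Chondroitin chains are lengthened by the synthases Chsy1 and Chsy3 together with the polymerising factors Chpf and Chpf2, and are begun by Csgalnact1 and Csgalnact2. Chpf (chr1:75474569-75479307) was the second most abundant gene of the set, at 86.8 TPM in replicate 1 and 121 TPM in replicate 2. Chpf2 was at 32.4 and 38.6 TPM, below Chpf in both libraries, and the difference of Chpf over Chpf2 was 1.51 (0.96 to 2.06). Chsy1 was at 27.7 and 29.5 TPM and Chsy3 at 7.77 and 9.23 TPM, a difference of 1.64 (1.20 to 2.08). Csgalnact1 was at 10.5 and 11.2 TPM and Csgalnact2 at 9.61 and 8.52 TPM. These initiating enzymes were not separated by the replicate spread, since the interval of Csgalnact1 over Csgalnact2 ran from -0.18 to 0.65. Chpf held 49.7% and 55.5% of the summed TPM of this step. The 6 genes summed to 175 and 218 TPM, which was 1.64 and 1.75 times the sum of the heparan polymerases Ext1 and Ext2. That compares a whole step with part of one, since the Extl genes are left out. It also counts all Ext1 transcripts, and those not annotated as coding held 70.0% and 75.7% of the Ext1 TPM. All 5 genes of heparan polymerisation summed to 149 and 175 TPM.

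After polymerisation, chondroitin receives sulfate on the 4-O or 6-O position of its galactosamine. Chst11, Chst12 and Chst13 are 4-O-sulfotransferases, and Chst3 and Chst7 are 6-O-sulfotransferases. Chst11 was at 22.9 TPM in replicate 1 and 31.3 TPM in replicate 2, and Chst12 at 19.0 and 23.2 TPM. Their order was the same in both libraries, but the interval of Chst11 over Chst12 held 0 (-0.17 to 0.85). Chst13 was at 0.50 and 1.13 TPM, with 54 and 112 counts, and lay below Chst11 by 3.96 (3.39 to 4.53). It was the only gene of the set that differed by more than 2-fold between the libraries.

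Chst3 was at 6.42 and 7.90 TPM and Chst7 at 2.27 and 2.45 TPM, a difference of 1.27 (0.84 to 1.71). Chst11 lay above Chst3 by 1.78 (1.28 to 2.28). The summed TPM of the 4-O-sulfotransferases was 4.88 times that of the 6-O-sulfotransferases in replicate 1 and 5.38 times in replicate 2. The RNA ratio does not give the ratio of sulfated sugars, which was not measured.

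Chst11 and Chst13 are shown because these related enzymes differed so much in level, and their start sites differ in CpG content. The sequences run from 250 bases before to 50 bases after the RefSeq transcription start (GRCm38.p6), written along the gene's strand, with each CpG in capitals. The Chst11 window (chr10:82985247-82985546, plus strand) holds 34 CpG and the Chst13 window (chr6:90325136-90325435, minus strand) holds 14.
Chst11: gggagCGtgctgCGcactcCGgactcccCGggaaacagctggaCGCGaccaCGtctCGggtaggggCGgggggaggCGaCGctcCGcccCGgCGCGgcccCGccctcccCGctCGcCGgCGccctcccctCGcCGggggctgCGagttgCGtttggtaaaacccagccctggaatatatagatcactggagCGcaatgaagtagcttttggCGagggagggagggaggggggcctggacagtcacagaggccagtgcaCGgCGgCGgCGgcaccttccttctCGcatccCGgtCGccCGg
Chst13: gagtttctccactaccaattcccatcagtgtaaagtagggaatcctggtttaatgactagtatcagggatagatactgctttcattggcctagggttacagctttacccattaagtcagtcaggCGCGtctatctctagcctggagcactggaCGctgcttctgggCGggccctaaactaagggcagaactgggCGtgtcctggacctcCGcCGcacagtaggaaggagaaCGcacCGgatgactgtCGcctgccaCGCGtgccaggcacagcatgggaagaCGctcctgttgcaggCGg

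Dermatan sulfate is made from chondroitin when Dse turns glucuronate into iduronate, after which Chst14 adds 4-O-sulfate. Chst14 (chr2:118926496-118928585) was the highest gene of chondroitin and dermatan modification, at 49.5 TPM in replicate 1 and 60.4 TPM in replicate 2. It exceeded Chst11 in both libraries, and the interval of Chst11 over Chst14 ran from -1.53 to -0.47. With no filter on low values the interval of this pair held 0 (-2.06 to 0.06). On CPM, which is counts scaled to the library total with no correction for length, the order turned (0.47, interval 0.05 to 0.89). Dse was at 23.7 and 24.6 TPM, above its relative Dsel, which is outside the set, by 0.73 (0.31 to 1.15). Chst15, which adds a further sulfate to 4-O-sulfated chondroitin, was at 12.7 and 15.0 TPM. The M21 span of Chst15 overlaps that of Fgfr2 on the same strand, and Fgfr2 was at 113 and 126 TPM. Whether their exons overlap was not tested, and the Chst15 counts, 4413 and 4811, were whole. Ust, the 2-O-sulfotransferase of uronic acids, was at 8.11 and 9.24 TPM.

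Heparan chains are lengthened by a complex of Ext1 and Ext2, and the related Extl genes start the chain or act on its length. Ext2 (chr2:93661028-93822568) was at 67.0 TPM in replicate 1 and 73.9 TPM in replicate 2. Ext1 (chr15:53064038-53346159) was at 39.3 and 50.7 TPM, lower than Ext2 in both libraries. Ext1 over Ext2 gave -0.65 (-1.15 to -0.14), and with no filter on low values its interval held 0 (-1.44 to 0.15). It also held 0 on CPM (-0.71 to 0.06). The level of Ext1 depended on which transcripts were summed. A 1554-base model annotated for nonsense-mediated decay, Ext1-203, held 67.8% and 61.5% of its TPM. The full-length protein-coding Ext1-201 of 7663 bases was at 11.8 and 12.3 TPM, with 6601 of the 9353 counts in replicate 1 and 6389 of 9574 in replicate 2. On coding transcripts alone, Ext1 over Ext2 was -2.40, so the order was kept and the gap was larger.

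Extl3, which starts heparan chains, was at 26.8 and 31.4 TPM. Extl2, an N-acetylhexosaminyltransferase acting on the linker, was at 7.19 and 7.54 TPM and Extl2 over Extl3 gave -1.84 (-2.28 to -1.41). Extl1, a further N-acetylglucosaminyltransferase, was at 8.29 and 11.6 TPM, and Extl3 exceeded it by 1.47 (0.97 to 1.97). The deposited posterior mean TPM of Extl2 was 16.1 and 16.4, well above its TPM, and its deposited intervals were wide, from 6.96 to 33.8 TPM in replicate 1 and from 7.25 to 34.2 TPM in replicate 2. For 39 of the 42 genes the change to posterior mean TPM was no larger than the spread between the libraries.

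Extl2 is shown because its RNA was assigned to both of its start sites. In the window chr3:116007199-116007498 (plus strand, 34 CpG), transcripts starting within 200 bases of the RefSeq start held 60.6% of its TPM in replicate 1 and 73.1% in replicate 2. In the window chr3:116008047-116008346 (plus strand, 6 CpG) the shares were 39.4% and 26.9%. By posterior mean TPM the shares were 27.5% and 33.8% at the CpG-rich upstream start and 17.7% and 12.5% at the downstream start, with the rest on transcripts at neither. By either estimate the upstream start held the larger share of the pair, but the shares themselves were not well determined.
Extl2 upstream start: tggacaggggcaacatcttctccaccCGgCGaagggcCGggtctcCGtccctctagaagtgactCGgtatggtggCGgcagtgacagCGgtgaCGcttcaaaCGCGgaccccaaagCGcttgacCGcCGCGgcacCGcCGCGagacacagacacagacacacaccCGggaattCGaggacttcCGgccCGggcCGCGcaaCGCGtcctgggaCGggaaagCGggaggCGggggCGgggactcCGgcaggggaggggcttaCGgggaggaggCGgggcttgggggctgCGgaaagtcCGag
Extl2 downstream start: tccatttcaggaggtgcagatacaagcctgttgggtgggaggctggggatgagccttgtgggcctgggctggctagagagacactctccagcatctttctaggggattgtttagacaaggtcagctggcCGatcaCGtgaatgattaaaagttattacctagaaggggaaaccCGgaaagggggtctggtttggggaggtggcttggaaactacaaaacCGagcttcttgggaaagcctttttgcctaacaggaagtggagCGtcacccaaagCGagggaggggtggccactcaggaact

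The N-deacetylase/N-sulfotransferases Ndst1 to Ndst4 make the first modification of heparan, on which the later ones depend. Ndst1 was at 36.4 TPM in replicate 1 and 44.5 TPM in replicate 2, and Ndst2 at 35.7 and 45.8 TPM. These levels were so close that their order changed between the libraries (log2 difference of Ndst1 over Ndst2 -0.01, interval -0.52 to 0.50). On CPM, Ndst1 lay above (0.91, interval 0.49 to 1.32). Ndst3 was at 1.06 and 0.91 TPM with 416 and 327 counts, and Ndst4 at 0.62 and 0.64 TPM with 142 and 145 counts. The 2 low genes were far above the counting floor, since a count of 0 would have allowed up to 3 counts. Ndst2 over Ndst3 was 4.39 (3.89 to 4.88), and the interval of Ndst3 over Ndst4 held 0 (-0.18 to 0.74). On coding transcripts alone Ndst3 was at 0.43 and 0.47 TPM and Ndst3 over Ndst4 was -0.16 (-0.54 to 0.22), while CPM gave 0.93 (0.51 to 1.34). Together Ndst1 and Ndst2 held 42.9 times the TPM of Ndst3 and Ndst4 in replicate 1 and 58.3 times in replicate 2.

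The C5-epimerase Glce, which turns glucuronate of heparan into iduronate, was at 14.9 and 13.5 TPM, and the 2-O-sulfotransferase Hs2st1, which acts on that iduronate, at 20.4 and 19.5 TPM. Both were slightly lower in replicate 2. Hs3st1, the 3-O-sulfotransferase that makes antithrombin-binding sites, was at 13.7 and 21.8 TPM. Its TPM ratio of 1.59-fold was larger than its count ratio of 1.36-fold, and the share of a short 763-base transcript, Hs3st1-203, was 25.8% in replicate 1 and 43.4% in replicate 2.

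The 6-O-sulfotransferases Hs6st1, Hs6st2 and Hs6st3 formed a clear order. Hs6st1 (chr1:36068400-36106446) was at 41.98 TPM in replicate 1 and 51.8 TPM in replicate 2, Hs6st2 at 16.1 and 22.7 TPM, and Hs6st3 at 0.75 and 1.07 TPM with 68 and 89 counts. The groups of values did not overlap. Hs6st1 lay above Hs6st2 by 1.24 (0.71 to 1.78), and Hs6st2 above Hs6st3 by 3.40 (2.88 to 3.92). Hs6st2 had a higher TPM in replicate 2 but a log2 count ratio of -0.03 (adjusted p = 0.52, exact binomial test). A 456-base processed transcript, Hs6st2-205, held 15.9% of its TPM in replicate 1 and 43.0% in replicate 2, on 49.3 and 157 of its counts.

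Hs6st1 and Hs6st3 are shown because both start sites are dense in CpG while the RNA levels lay far apart. The Hs6st1 window (chr1:36068150-36068449, plus strand) holds 47 CpG and the Hs6st3 window (chr14:119138015-119138314, plus strand) holds 41. The only tabulated Hs6st3 transcript starts 76 bases from this RefSeq start, outside the window.
Hs6st1: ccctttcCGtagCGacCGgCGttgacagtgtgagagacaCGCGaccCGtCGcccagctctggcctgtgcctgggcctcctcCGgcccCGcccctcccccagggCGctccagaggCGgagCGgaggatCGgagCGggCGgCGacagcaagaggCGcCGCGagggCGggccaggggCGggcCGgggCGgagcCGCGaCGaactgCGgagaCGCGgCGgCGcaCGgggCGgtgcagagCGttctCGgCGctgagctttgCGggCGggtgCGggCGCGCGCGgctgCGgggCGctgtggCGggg
Hs6st3: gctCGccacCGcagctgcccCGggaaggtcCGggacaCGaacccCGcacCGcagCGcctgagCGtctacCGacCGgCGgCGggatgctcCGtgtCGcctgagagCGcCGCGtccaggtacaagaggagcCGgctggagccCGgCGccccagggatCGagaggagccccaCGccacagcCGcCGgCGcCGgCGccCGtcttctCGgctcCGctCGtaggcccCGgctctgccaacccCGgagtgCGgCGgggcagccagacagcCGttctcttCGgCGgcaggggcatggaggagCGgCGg

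The extracellular sulfatases Sulf1 and Sulf2 remove 6-O-sulfate from finished heparan chains at the cell surface and so change the binding of Wnt, FGF and other ligands. Sulf2 (chr2:166073089-166155663, minus strand) was at 243 TPM in replicate 1 and 293 TPM in replicate 2 (268 ± 35.4, SD, n = 2). It was 2.58 times the next gene of the set, Chpf, and above 96.8% of detected protein-coding genes. Sulf1 (chr1:12692277-12861192), the fifth gene of the set by level, was at 85.6 and 94.8 TPM. Sulf1 over Sulf2 gave -1.55 (-2.09 to -1.01). Together the sulfatases held 23.1% and 23.6% of the TPM of all 42 genes, and 5.58 and 5.13 times the summed TPM of the Hs6st enzymes that add the same sulfate.

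Sulf2 is shown as the most abundant gene of the set, with RNA assigned to start sites 398 bases apart. Transcripts starting within 200 bases of the downstream start (chr2:166155236-166155535, minus strand, 26 CpG) held 62.9% of its TPM in replicate 1 and 48.3% in replicate 2. Those at the upstream start (chr2:166155634-166155933, minus strand, 12 CpG) held 25.2% and 29.8%. Most of the rest was on Sulf2-205 (10.1% and 20.6%), which starts within 200 bases of neither. Of this pair, the downstream start held the larger share in both libraries, by a smaller margin in replicate 2.
Sulf2 downstream start: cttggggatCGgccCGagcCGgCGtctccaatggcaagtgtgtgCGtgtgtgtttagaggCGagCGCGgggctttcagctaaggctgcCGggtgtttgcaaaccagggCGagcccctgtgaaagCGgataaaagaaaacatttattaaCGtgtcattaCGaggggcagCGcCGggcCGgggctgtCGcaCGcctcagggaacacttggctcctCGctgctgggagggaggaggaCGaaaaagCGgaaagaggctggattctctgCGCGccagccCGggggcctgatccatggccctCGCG
Sulf2 upstream start: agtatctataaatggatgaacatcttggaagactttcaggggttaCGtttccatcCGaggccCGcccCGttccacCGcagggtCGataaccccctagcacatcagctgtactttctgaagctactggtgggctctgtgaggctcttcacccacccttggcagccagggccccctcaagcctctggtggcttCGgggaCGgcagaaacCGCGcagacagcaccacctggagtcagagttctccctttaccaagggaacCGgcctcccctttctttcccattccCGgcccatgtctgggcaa

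In the 22 comparisons of related enzymes, 18 intervals left out 0, and 21 pairs had the same order in both libraries. The intervals came from a limma fit over 15059 genes, whose variances were pooled to 5.37 degrees of freedom. For a gene near 1 TPM the size of a difference depends on the pseudocount added before the logarithm. With 0.1 and 5 in place of 1, Chst11 over Chst13 was 4.97 and 2.46. Ndst2 over Ndst3 was then 5.23 and 2.93, and Hs6st2 over Hs6st3 was 4.27 and 2.03. The 4 pairs not separated were Csgalnact1 and Csgalnact2, Chst11 and Chst12, Ndst1 and Ndst2, and Ndst3 and Ndst4. An interval that holds 0 does not show equal levels, and among these 4 the interval of Chst11 over Chst12 reached 0.85. These are levels in RNA of whole limb, where fewer cells of a type and less RNA per cell cannot be told apart.

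**Figure D2:**
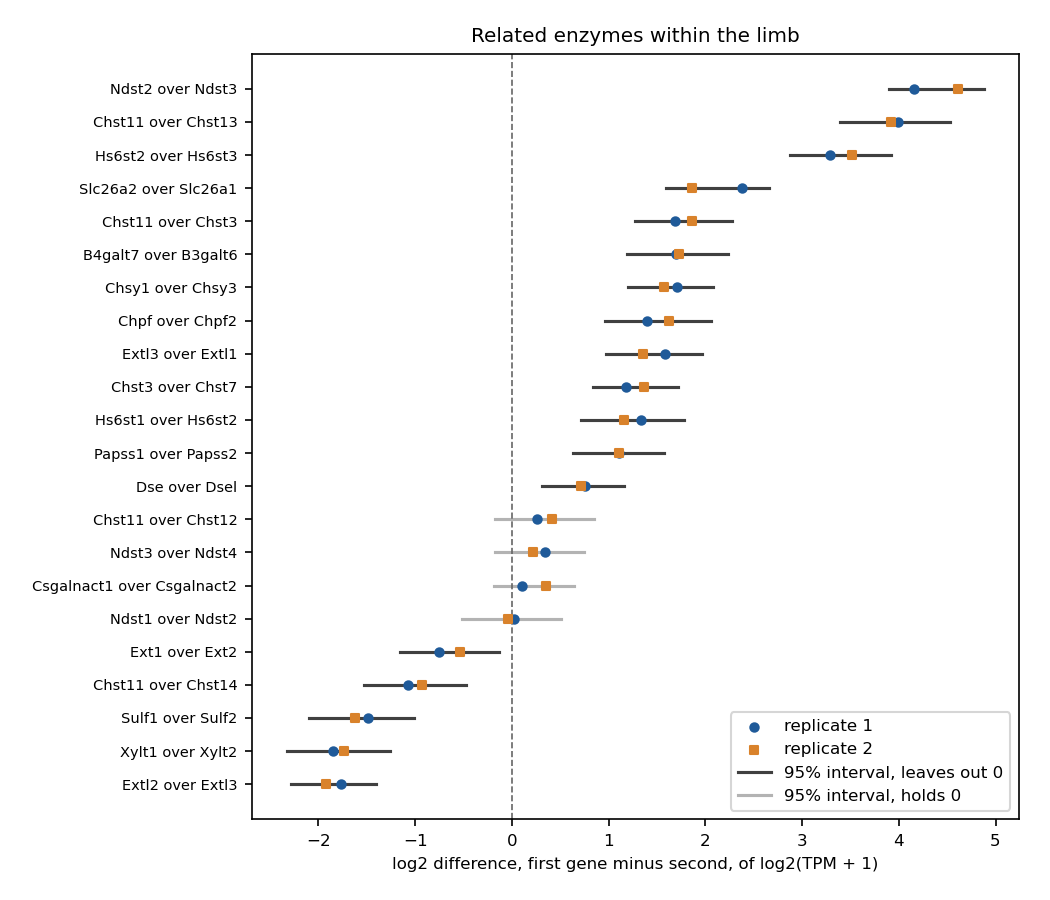
Difference in log2(TPM + 1) of the first gene minus the second for 22 pairs, with a circle for replicate 1, a square for replicate 2 and a bar for the 95% interval, dark where it leaves out 0. The largest differences are Ndst2 over Ndst3 at 4.39 and Chst11 over Chst13 at 3.96, and 4 grey bars cross the dashed line at 0.

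Transcript forms were simple for many of the genes and mixed for a few. As tabulated, 15 of the 42 genes had 1 transcript, and in 24 a single transcript held more than 90% of the TPM in both libraries. In 12 genes at least 2 transcripts each held 10% or more in both libraries, and in 12 a share moved by more than 10 percentage points between the libraries. The leading transcript differed between the libraries for Glce, Ndst3 and Sulf1. For Glce the leading form was Glce-201 in replicate 1 (62.8% against 40.3% in replicate 2) and Glce-203 in replicate 2 (34.0% against 54.6%). For Sulf1, Sulf1-202 held 38.3% and 26.0% while the shorter Sulf1-204 held 27.8% and 35.2%. For Sulf2, Sulf2-201 was at 153 and 141 TPM, and the 897-base Sulf2-205 at 24.4 and 60.3 TPM.

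For Sulf2 the transcripts went in different directions, since Sulf2-201 was lower in replicate 2 while Sulf2-202 (59.8 and 86.9 TPM) and Sulf2-205 were higher. Transcripts not annotated as coding held more than 10% of the TPM in both libraries for 5 genes: Ext1, Xylt2, B4galt7, Hs6st2 and Ndst3. In Xylt2 they held 26.8% and 28.2%, mainly a 643-base retained-intron model. With coding transcripts alone 38 of the 42 genes were again detected. The shares are estimates from the deposited tables, and some shares on short models rest on few counts, as for Hs6st2-205.

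Fam20b, Chst3 and Csgalnact1 were mixed and kept their leading form in both libraries. Fam20b was divided between Fam20b-202 (67.0% and 61.2%) and Fam20b-201 (29.1% and 35.4%), both coding. Chst3-202 held 73.8% and 82.8% of Chst3, and Csgalnact1-201 held 78.0% and 64.7% of Csgalnact1. Among genes at low level, Ndst3 was led in replicate 1 by Ndst3-205, annotated for nonsense-mediated decay (59.4% against 48.9% in replicate 2), and in replicate 2 by the coding Ndst3-201 (9.66% against 49.4%). That change rested on 39.4 and 160 counts of Ndst3-201. The effective length that the authors' tables give for a gene depends on its mixture of transcripts. It changed by more than 10% between the libraries for 3 genes, to 0.69 of its replicate 1 value for Hs6st2, 0.848 for Hs3st1 and 0.854 for Ext1.

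Gene models bear on these levels too. The leading transcript of Xylt1 was 3191 bases long as tabulated and 9020 bases in M21, that of Ndst4 3486 and 7417 bases, that of Hs2st1 4780 and 6177 bases and that of Chsy3 2931 and 3572 bases. The effect of the shorter models on TPM was not tested. Some genes of the set share their locus with a gene on the opposite strand: Ndst1 with the ribosomal protein gene Rps14 (1616 and 1414 TPM), Chpf2 with Smarcd3 (86.0 and 81.4 TPM), Sulf2 with Ncoa3 (21.3 and 28.4 TPM) and Ext2 with Alx4 (4.79 and 4.86 TPM). The libraries were stranded, but whether counting used the strand is not stated.

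**Figure D3:**
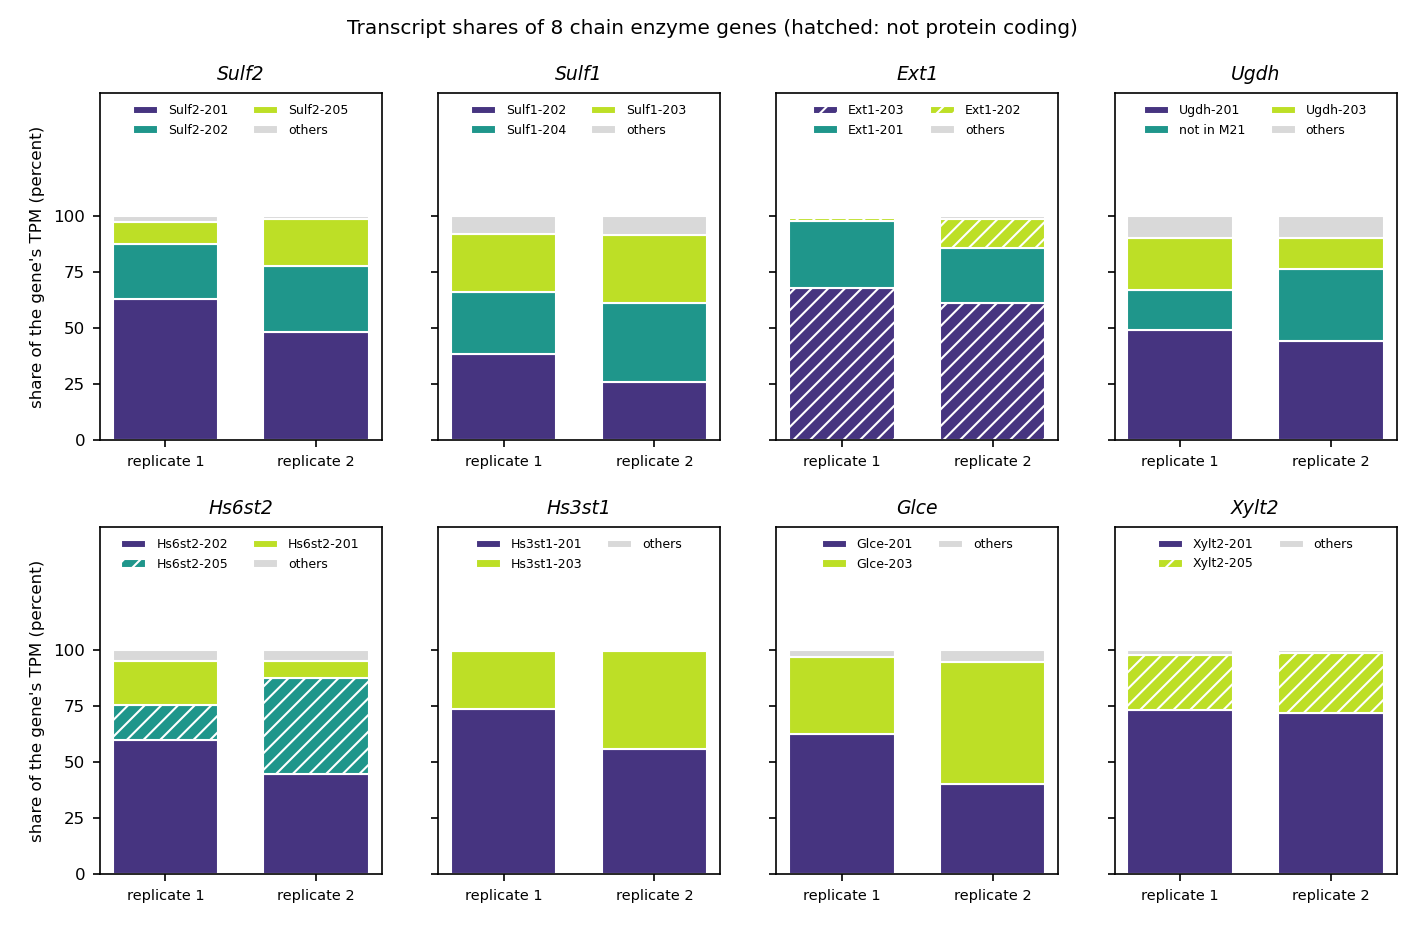
Share of each gene's TPM in percent held by its transcripts in replicates 1 and 2 for 8 genes, with transcripts under 10% in both libraries pooled in grey and transcripts not annotated as coding hatched. Ext1 is mostly hatched (Ext1-203 at 67.8% and 61.5%), and the hatched Hs6st2-205 is the larger in replicate 2 (43.0% against 15.9%).

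A RefSeq start window was at hand for 33 of the 42 genes, with 42 windows in all because 9 genes have 2. The genes without one were Xylt1, Chsy3, Csgalnact1, Ext1, Extl3, Slc26a2, Ndst1, Ndst4 and Sulf1. In the window nearest the leading transcript the median CpG count was 24, against 7 over all 32851 windows and 20 over windows of detected protein-coding genes. The GC-box hexamer GGGCGG, searched on both strands, was in 63.6% of the genes' windows, 35.7% of all windows and 61.8% of those of detected protein-coding genes. The CCAAT pentamer, on both strands, was in 48.5%, against 37.4% and 37.3%. TATAAA, on both strands, was in 3.03% (1 gene), against 13.6% and 7.19%. These values take 1 window for each member gene, while the backgrounds take every window. Over all 42 member windows the median CpG count was 23.5. The shares there were 59.5% for GGGCGG, 45.2% for CCAAT and 4.76% for TATAAA. A match is a string of letters and was not tested as a binding site. The lowest counts of CpG were 1 for Ndst3 and 1 for the start of Papss2 from which its only tabulated transcript runs. For Glce, Ndst3, Ndst2, Dse, Hs6st2, Chpf, B4galt7 and Hs6st3 the leading transcript starts outside the nearest window. In that order, it starts 52003, 18376, 4235, 480, 254, 200, 169 and 76 bases from the RefSeq start. The CpG counts of these genes may therefore not be those of the start in use. Papss2 has a second RefSeq window upstream, with 27 CpG, where no tabulated transcript starts, so which start its RNA came from cannot be told apart here. CpG count and level did not go together throughout the set. B3galt6, with 48 CpG, was at 10.9 TPM and B3gat3, with 14 CpG, at 83.8 TPM, and both leading transcripts start inside their windows.

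**Figure D4:**
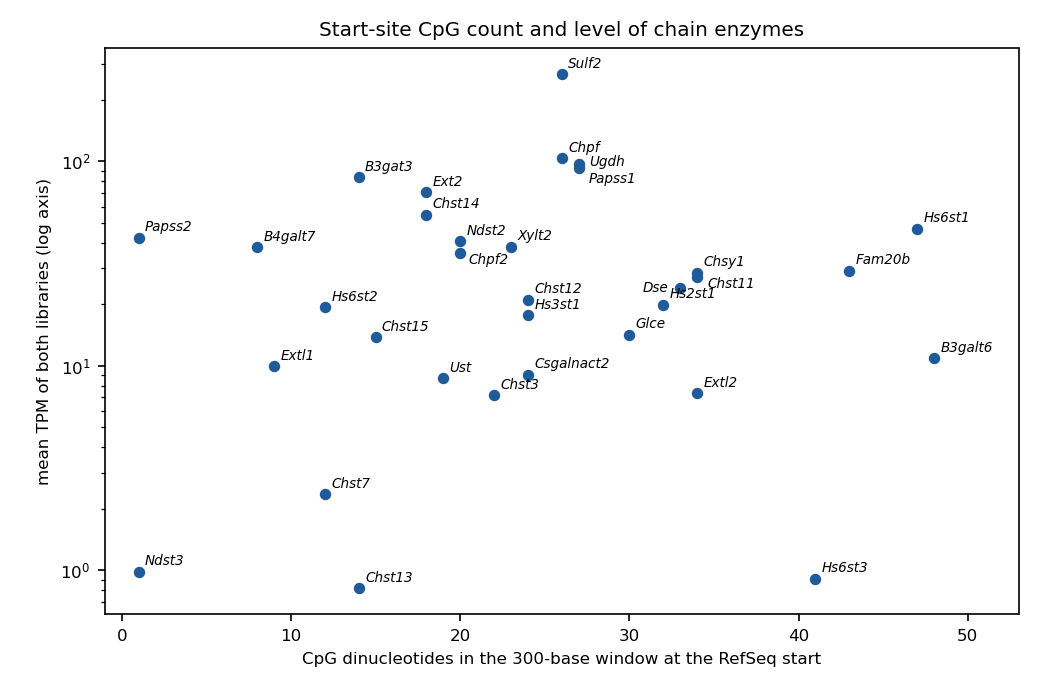
CpG count in the 300-base window at the RefSeq start nearest the leading transcript against mean TPM of both libraries on a log axis, 1 point for each of 33 genes. Sulf2 lies highest with 26 CpG, while Hs6st1 (47 CpG) and Hs6st3 (41 CpG) lie side by side on the horizontal axis and far apart in level.

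Between the libraries the set leaned towards replicate 2. Of the 42 genes, 32 had a log2 ratio of TMM-scaled counts above 0, against 10062 of the 20396 genes with at least 10 counts. At 1000 counts or more it was 28 of 37 members, against 6467 of 12361 genes. The set's TPM summed to 1422 in replicate 1 and 1640 in replicate 2. By the exact binomial test of TMM-scaled counts, which compares the counting noise of these libraries alone, 27 of the 42 were higher and 7 lower in replicate 2 at an adjusted p under 0.05. Over the 20396 genes with at least 10 counts the shares were 30.3% higher and 30.2% lower. By the same adjusted p, at 1000 counts or more 26 of 37 members were higher and 6 lower, against 41.5% and 37.2% of 12361 genes. The median log2 ratio of the 42 was 0.21, against -0.01 over all genes. Only Chst13 passed 2-fold, at a log2 ratio of 1.16, where 8.05% of genes with at least 10 counts did and 1.19% of those with at least 1000. Chst13 has fewer than 1000 counts. The deposited TPM intervals, whose level is not stated, did not overlap for 30 of the 42, of which 27 were higher in replicate 2 and 3, Ugdh, Glce and Csgalnact2, were lower. At 1000 counts or more this was 26 members higher and 3 lower of 37, against 37.0% and 29.7% of the 12361 genes.

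The steps did not lean equally. The 6 linker genes summed to 190 and 231 TPM and heparan modification to 182 and 222 TPM. Sulfate supply was nearly level, at 146 and 143 TPM. Among the genes higher in replicate 2, Xylt1 had a log2 ratio of 0.52, Extl1 and Chpf of 0.48, and Chst11 of 0.45. The 7 lower genes were Ugdh, Csgalnact2, Glce, Ndst3, Hs2st1, Fam20b and Papss1, with log2 ratios from -0.23 for Ndst3 to -0.04 for Papss1. Ndst3 was at the threshold (adjusted p = 0.050, exact binomial test) and missed it with no filter on low counts (0.059).

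GC content of the transcript moved with the library ratio. Spearman's rho between the GC content of the leading transcript and the log2 ratio was 0.50 across 12255 genes with at least 1000 counts and 0.70 across the 37 members among them, which share the same libraries. Between 50% and 55% GC the median log2 ratio was 0.06 over 3270 genes and 0.27 over 12 members. Above 55% it was 0.21 over 3365 genes and 0.29 over 10 members, and between 45% and 50% it was -0.08 over 3036 genes and 0.01 over 12 members. Median GC was 51.3% for the members and 50.8% for all these genes. The summed chondrocyte markers, all 6 detected, were at 2309 and 2759 TPM, and the limb patterning markers at 299 and 372 TPM. Col2a1 alone gave 1369 and 1622 TPM of the chondrocyte sum, and Col9a1 was the only marker in it that was lower in replicate 2 (223 and 206 TPM). Of the limb patterning markers, only Prrx1 did not rise in TPM (101.4 and 100.6 TPM). Its log2 ratio of TMM-scaled counts was 0.07 (adjusted p = 5.5e-10, exact binomial test). The 3 epidermal keratins summed to 769 and 549 TPM, with all 3 above 1 TPM. The part of GC content or of cell content in the library differences was not tested.

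Other genes of the pathway were taken by role, and their counts stand against the same shares over all genes (62.8% of protein-coding genes detected, 30.3% of genes higher and 30.2% lower in replicate 2). The other chain synthesis genes had a median of 13.7 TPM, with 24 of 29 detected, and 18 were higher and 2 lower in replicate 2. The highest were Tmem165, a Golgi cation transporter that supplies manganese, at 133 and 151 TPM and Golph3, which retains glycosyltransferases in the Golgi, at 81.0 and 103 TPM. Chain degradation genes had a median of 18.3 TPM, with 19 of 20 detected, 13 higher and 3 lower, led by the lysosomal hexosaminidase subunit Hexa (73.1 and 96.6 TPM) and the hyaluronidase Hyal2 (56.5 and 72.6 TPM). Core proteins that carry the chains had a median of 43.3 TPM, with 30 of 32 detected, 18 higher and 7 lower, led by the glypican Gpc3 (607 and 694 TPM) and biglycan, Bgn (333 and 430 TPM). Of the 3 hyaluronan synthases, which make a chain with no core protein and no sulfate, Has2 (11.5 TPM in both) and Has3 (1.64 and 1.55 TPM) were detected. At 10 counts or more in total, none of these 4 lists held a gene past 2-fold. Below that minimum, the sulfotransferase Chst4 had 0 and 4 counts.

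The limb label was met by its markers, with Prrx1 at 101 TPM in both libraries and Hoxd13 at 90.7 and 122 TPM. Genes that define heart, lung and forebrain were under 1 TPM in both libraries. Of the liver genes, Alb was at 5.70 and 1.10 TPM and Ttr at 4.84 and 5.87 TPM. Of the neuronal genes, Tubb3 was at 10.4 and 8.41 TPM and Elavl4 at 0.92 and 0.71 TPM. Library depth was 110172148 and 103363136 counts on gene rows, so 3 counts, the most that a count of 0 allows, equal 0.0272 and 0.0290 CPM. This floor covers counting error only.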

How the data were processed

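Stranded paired-end libraries of polyadenylated RNA from limb were tabulated by the authors against mm10 with GENCODE M4, per the deposited text files, with a program not given in the sources used. Per the file headers, the deposited tables hold expected counts, TPM, posterior mean TPM with an interval, and each transcript's share of its gene in percent. GENCODE M21 (GRCm38) gave symbols, coordinates and biotypes by stable identifier, without a match for 884 of 43346 gene rows, and start windows from RefSeq (GRCm38.p6). The leading transcript had the same length in the deposited table and in M21 for 27 of the 42 genes.

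Expected counts were rounded, and rows for spike-ins, tRNA and phiX were not used. Gene rows took 96.3% and 95.7% of all deposited counts, and the counts of all 42 genes were whole within 0.005. Libraries were scaled by TMM factors of 1.01 and 0.992 from edgeR 4.0.16 (R 4.3.3) and compared by an exact two-sided binomial test with Benjamini-Hochberg adjustment at 0.05, over genes with at least 10 counts, with log ratios at a prior count of 0.5. Related genes were compared with an intercept-only limma 3.58.1 fit (eBayes with trend) to log2(TPM + 1) of genes averaging 1 TPM or more and of all genes named in a pair, whatever their level. DESeq2 1.42.0 size factors of 1.04 and 0.962 were an alternative, as were other thresholds, pseudocounts and filters. The scripts were tested on simulated data.

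Members, lists, pairs and tests were chosen with earlier results of these data known. The naming rule gives all 42 members, with both values for the highest genes of each step, for genes under 1 TPM or past 2-fold, and for each pair; of other lists, the 2 highest genes. Of those lists, Tmem2 and Bpnt2 had no row, and Bpnt2 is present under its older name Impad1.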

Additional observations from a re-analysis of the deposited data

How the results depend on the processing

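The median level of the 42 genes moved from 22.6 to 25.5 TPM when TPM was rescaled to nuclear gene rows and to 20.5 TPM with coding transcripts alone, an alternative chosen after seeing the data. Leaving out 1 library gave medians of 21.6 and 23.9 TPM and 39 and 40 detected genes. The number detected was 42 at 0.5 TPM, 37 at 5 TPM and 39 with posterior mean TPM. The count past 2-fold stayed at 1 and the count of binomial calls at 33 or 34 in the alternatives run, the latter including p adjusted over genes with 1000 counts or more, chosen after seeing the data. Slc26a2, called higher in replicate 2, missed the threshold with library totals alone (adjusted p = 0.10, exact binomial test), and Papss2 passed it (0.0050). Pairs with an interval leaving out 0 numbered 18 with either other pseudocount, with posterior mean TPM and with coding transcripts alone, 16 with no filter on low values and 20 with CPM. CPM does not account for length, and it turned the order of Chst11 over Chst14 (0.47) and Ndst1 over Ndst2 (0.91), separated Chst11 over Chst12 (1.78) and Ndst3 over Ndst4 (0.93), and lost the call of Ext1 over Ext2 (-0.32). With 1 library left, pair intervals and binomial calls could not be made. The leading transcript differed for 2 genes by posterior mean share and for 2 among detected genes. Libraries could not be paired between groups because there is only 1 group. The intervals of the gene pairs combine the separate variances of the genes and do not use that both were measured in the same library. Chst13, Hs6st3 and Ndst4 had the fewest counts of the set, 54 to 145 a library, and Extl2 had wide deposited TPM intervals.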
